A study of Mus musculus with 38 samples.

Results

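The genes of the major histocompatibility complex (MHC) and of antigen presentation were read across CD4 T cells of 5 mouse genotypes, before and after 24 h of stimulation. The members were every gene of the deposited count table whose mouse symbol starts with H2-, together with B2m, Tap1, Tap2, Tapbp, Cd74 and Ciita. These were 47 of the 24028 genes, and 36 of them passed the filter on low counts and were tested. The 47 comprised 2 classical class I genes, 28 non-classical class I genes, 4 class I partner and loading genes, 5 class II chain genes, 6 class II loading genes, the class II transactivator Ciita and H2-Ke6, an enzyme gene that shares only the prefix. H2-Bl, H2-K2, H2-Q5 and H2-T10 of the non-classical genes, and H2-Ea of the class II chain genes, are annotated as transcribed pseudogenes. Of the 11 untested members, 10 were non-classical class I genes of the H2-M group and the other was H2-Ea; 7 had no count in any library and none had more than 14 counts in all 38 libraries together.

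The cells were naive CD4 T cells purified with a commercial kit from lymph nodes and spleen, pooled mouse by mouse, of males or females. Stimulated cells were kept for 24 h in medium with interleukin-2 at 50 U/ml on plates coated with antibodies to CD3 at 0.5 µg/ml and to CD28 at 0.2 µg/ml. Each state held 3 rescue libraries and 4 libraries of every other genotype. Rescue mice were B6 mice labelled CD28-/- that also carried Cre recombinase driven by Cd4 and a miR-17~92 transgene placed in Rosa26, which that Cre switches on. Mice labelled CD28-/- carried neither Cre nor transgene and are called CD28ko-labelled here. T1792delta/delta mice carried the same Cre with a floxed miR-17~92 cluster, and T1792tg/tg mice carried the Cre with the transgene on a CD28-sufficient background. Wild-type mice (wt) carried none of these, and no group carried Cre alone, so that any Cre effect cannot be told apart from the deletion or the transgene. The comparisons asked how deletion and forced expression of the miR-17~92 microRNA cluster, and loss of the costimulatory receptor CD28, with and without the transgene, altered the cells at rest and after stimulation.

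Class I molecules are displayed by nearly all nucleated cells. Their heavy chain pairs with beta-2 microglobulin (B2m) and is loaded with peptides that the TAP1-TAP2 transporter pumps into the endoplasmic reticulum, where tapasin (Tapbp) holds the empty molecule at the transporter. H2-K1 and H2-D1 encode the classical chains that present to CD8 T cells. The non-classical chains of the Q, T and M groups include Qa-2, encoded by nearly identical H2-Q genes, and Qa-1, encoded by H2-T23. Class II molecules are made by B cells, dendritic cells and other professional presenting cells under the control of CIITA. Mouse T cells are known to make little or none of them, in contrast to activated human T cells. Interferon gamma raises transcription of class I genes through IRF1 and the transactivator NLRC5.

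The libraries held 22267100 to 28020700 counts at 24 h and 19427300 to 24982400 in the naive state. Levels are CPM, library-scaled counts, or RPKM, CPM per kilobase of gene, where genes are compared with each other. The members together took 0.30% to 0.60% of the counts at 24 h and 1.21% to 1.99% in the naive state. The count of Cd28 over the whole gene does not check the CD28-/- label, because transcript remained: it averaged 737 ± 135 CPM in CD28ko-labelled libraries, against 825 ± 86.8 CPM in wild-type ones, all naive (SD, n = 4 each). The precursor row Mir17, inside the cluster, lay between 4.91 and 8.54 CPM in naive rescue and between 5.78 and 7.85 CPM in naive T1792tg/tg libraries, against at most 0.564 CPM in any other naive library, and was at 0 in all 4 T1792delta/delta libraries at 24 h. Naive CD28ko-labelled library 1 and naive rescue library 2 stood apart from their groups on principal components.

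The promoters of the class I genes that the results turn on are shown first, because the members that moved most between genotypes are near copies of each other. Each sequence is the 200 bases before the most upstream start that the RefSeq promoter table lists for the gene (GRCm38.p6), on the gene's own strand. Those starts need not be the ends of the annotated genes. The H2-K1 window lies wholly inside the annotated gene and the H2-Q7 window reaches into its first bases, while the other windows end at the gene's edge. Capitals mark 4 short motifs, searched on both strands. They are GGGGATTCC, from the NF-kB site of the class I enhancer; GTTTCACTT, the core of the interferon response element; CCAAT, the CCAAT box, which reads ATTGG on the other strand; and TGACG, the core of the cyclic AMP response element. H2-Q6 (chr17:35424650-35424849, plus strand) and H2-Q7 (chr17:35438955-35439154, plus strand) belong to the Qa-2 group. H2-K1 (chr17:34000348-34000547, minus strand) is classical, and H2-Q4 (chr17:35379417-35379616, plus strand) is the neighbour that moved less.
H2-Q6: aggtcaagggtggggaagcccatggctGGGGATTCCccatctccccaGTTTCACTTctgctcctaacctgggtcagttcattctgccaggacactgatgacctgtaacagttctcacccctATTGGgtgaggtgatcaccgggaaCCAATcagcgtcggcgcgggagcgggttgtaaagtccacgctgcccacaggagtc
H2-Q7: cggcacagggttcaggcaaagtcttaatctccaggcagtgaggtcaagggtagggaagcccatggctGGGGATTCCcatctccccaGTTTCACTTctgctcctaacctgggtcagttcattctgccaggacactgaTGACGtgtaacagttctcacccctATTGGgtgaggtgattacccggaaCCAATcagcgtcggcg
H2-K1: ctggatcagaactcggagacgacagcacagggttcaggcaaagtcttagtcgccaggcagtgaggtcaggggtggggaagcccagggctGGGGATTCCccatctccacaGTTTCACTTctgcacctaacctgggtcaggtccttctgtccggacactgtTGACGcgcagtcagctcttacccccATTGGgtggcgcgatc
H2-Q4: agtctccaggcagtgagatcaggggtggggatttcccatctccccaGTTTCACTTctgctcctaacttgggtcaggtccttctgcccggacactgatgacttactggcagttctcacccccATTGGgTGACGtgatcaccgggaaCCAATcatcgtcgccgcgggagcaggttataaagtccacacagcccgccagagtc

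The H2-Q6 and H2-Q7 windows were identical at 156 of 161 aligned bases (96.9%), H2-Q6 and H2-K1 at 85% of 140, and H2-Q6 and H2-Q4 at 83% of 206. The RefSeq table held promoters of 35 of the 47 members. The letters of the NF-kB site stood in 4 of these windows (H2-Q6, H2-Q7, H2-K1 and H2-D1), against 0.155% of all 27025 promoters. Only the exact letters were searched, and the H2-Q4 window holds a near match of them. A window without this mark is therefore not shown to lack such a site. The interferon core stood in 9 of the 35, all of them class I genes, against 0.259% of all promoters. The CCAAT box was in 30 of 35 windows and in 30.1% of all promoters, and the cyclic AMP core in 13 of 35 and in 15.8%. Among the class I windows the classical genes, which changed less between genotypes, held the same NF-kB and interferon letters as H2-Q6 and H2-Q7. These are matches of letters only.

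Because the counts came from 76-base reads, copies can share reads. Among the annotated transcripts (GENCODE M21, 46 of 47 members found, all but H2-Q8), 20.9% of the 76-base stretches of H2-Q5, 15.1% of those of H2-Q6 and 16.5% of those of H2-Q7 also occurred in another member, chiefly in H2-Q7 or H2-Q10. Stretches shared with H2-Q8 could not be counted, so the shares given for the Q genes may be too low. The shares were 2.96% for H2-K1, 5.17% for H2-D1 and 4.16% for H2-Q4. They were 0% for B2m, Tap1, Tap2, H2-M3, H2-DMa and all class II chains. How shared reads were counted is not given in the sources used here, so the split of counts within the Q group is uncertain, and the summed class I count is given beside it.

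In naive wild-type cells the per-length level was highest for B2m at 2971 ± 429 RPKM, followed by H2-K1 at 1784 ± 120 RPKM and H2-D1 at 1293 ± 101 RPKM (SD, n = 4). H2-Q7 at 380 ± 42.5 RPKM and H2-Q4 at 349 ± 36.6 RPKM came next and did not differ beyond their spread. Cd74, the invariant chain of class II, stood at 278 ± 59.6 RPKM, and H2-T23 at 226 ± 15.6 RPKM. The class II chains H2-Aa (124 ± 26.2 RPKM) and H2-Ab1 (93.8 ± 18.4 RPKM) reached levels near those of Tapbp (127 ± 10.1 RPKM) in this T cell preparation.

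Nearly the whole family was lower at 24 h than in the naive state in every genotype. No group was cultured without stimulation, so the effects of culture and of stimulation cannot be told apart. CPM gives a share of the counted RNA, so a lower CPM need not mean less message per cell. In wild-type cells 35 of 36 tested members were lower at 24 h than in the naive state and 0 were higher (edgeR's quasi-likelihood test, adjusted p below 0.05), where 43.9% of all 13650 tested genes were lower and 41.3% were higher. The median log2 fold change of the members was -2.27, beside -0.06 over all tested genes. The same count of lower members was 35 of 36 in rescue (40.8% of all genes lower, 38.8% higher), 35 in CD28ko-labelled (41.2% and 39.7%), 36 in T1792delta/delta (43.7% and 41.4%) and 35 in T1792tg/tg cells (44.1% and 41%). No member was higher at 24 h in any of these tests. In wild-type cells 6 of 7 RNA stress and dissociation genes were lower as well (median -5.86), with sums of 195 to 236 CPM at 24 h and 3491 to 10758 CPM in naive libraries, and 6 or 7 of the 7 were lower in each other genotype, with 1 higher in T1792tg/tg and in rescue cells. Of 8 CD8 T and NK cell markers 6 were lower in wild-type cells (median -3.34), and the part of these genes in the decrease was not tested.

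**Figure D1:**
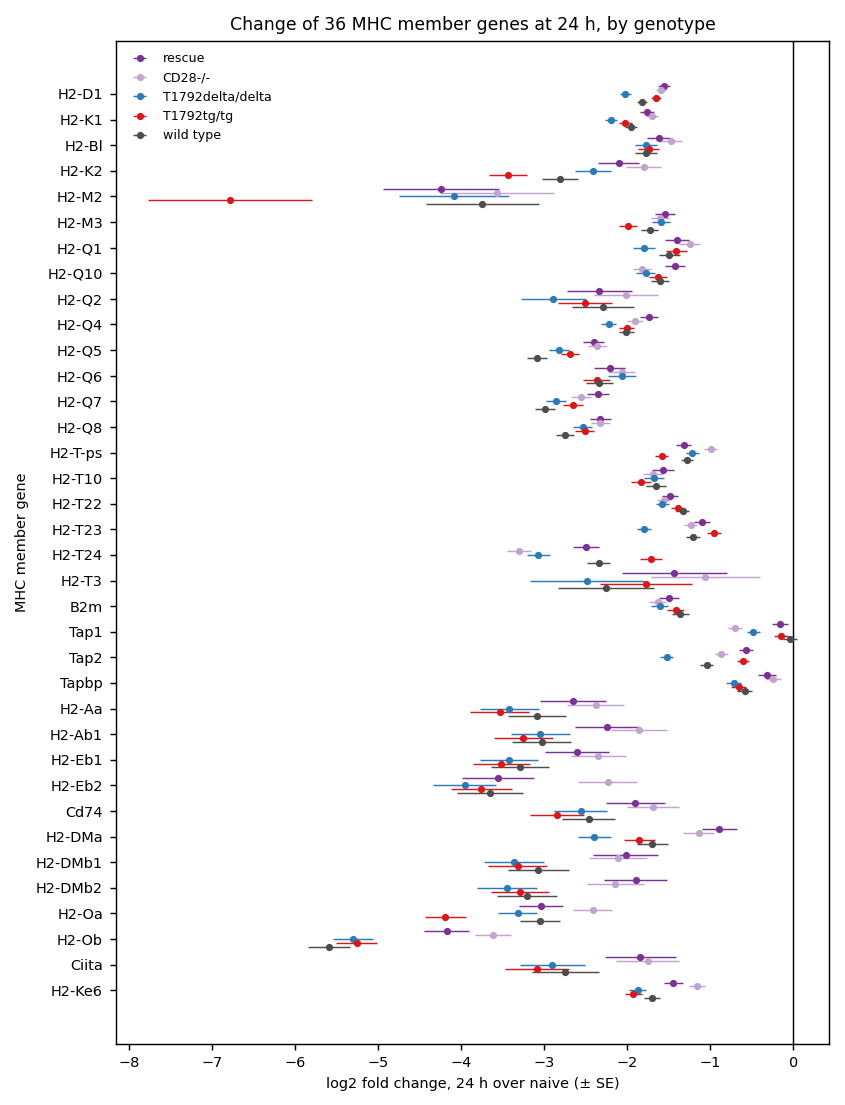
Log2 fold change of the 36 tested members at 24 h over naive (points, with SE as bars) in rescue, CD28ko-labelled (CD28-/-), T1792delta/delta, T1792tg/tg and wild-type cells, from edgeR with 4 libraries per group and state (3 for rescue). All points lie left of 0, from -5.59 for H2-Ob to -0.04 for Tap1 in wild-type cells. H2-M2 had 0 counts in all 4 T1792tg/tg libraries at 24 h, so its point there depends on the model's prior.

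The classical class I genes and B2m, their light chain, all fell, and in wild-type cells B2m fell less. H2-K1 read 987.7, 1011, 1045 and 1186 CPM in wild-type cells at 24 h and 4259, 4162, 3703 and 4307 CPM in naive ones. The states did not overlap, and the log2 fold change was -1.96 ± 0.07 (SE, adjusted p = 2.55e-23), or 3.88-fold lower at 24 h. H2-D1 fell by 1.82 ± 0.06 and B2m by 1.36 ± 0.10 on the log2 scale. Summed into 1 row, the counts of all 30 class I genes, pseudogenes included, fell by 1.93 ± 0.06. Most of this sum came from H2-K1 and H2-D1, so it says little of the smaller copies. Shared reads that were never counted are missing from it too. All 18 tested non-classical class I genes, pseudogenes included, fell in wild-type cells. H2-Q7 fell by 2.99 ± 0.12, H2-T23 by 1.21 ± 0.08 and H2-M3, which presents formylated bacterial peptides, by 1.73 ± 0.11.

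The peptide loading genes fell least. Tap2 fell by 1.05 ± 0.08 and Tapbp by 0.58 ± 0.09 in wild-type cells. Tap1 read 323.6, 393.9, 386.6 and 398.3 CPM in wild-type cells at 24 h and 377.4, 411, 367.9 and 386.3 CPM in naive ones. These values overlapped, and the log2 difference of -0.04 had a 95% interval of -0.20 to 0.13 (adjusted p = 0.665). Tap1 fell by 0.70 ± 0.08 in CD28ko-labelled cells (adjusted p = 1.24e-09) and by 0.48 ± 0.08 in T1792delta/delta cells (adjusted p = 1.86e-06). It did not pass the test in rescue (-0.16 ± 0.09) or T1792tg/tg cells (-0.15 ± 0.08), where RLE scaling gave -0.22 (adjusted p = 0.0289) and -0.21 (adjusted p = 0.0175). In CD28ko-labelled cells Tapbp fell by 0.24 ± 0.09, a call lost without naive library 2 (adjusted p = 0.0729) or 24 h library 3 (adjusted p = 0.0533). Of 27 other genes of the pathway, 10 were higher and 13 lower at 24 h in wild-type cells, with a median of -0.07. These counts are near the shares over all genes, 41.3% higher and 43.9% lower. Among the higher ones were the endoplasmic reticulum chaperones Canx (1.23 ± 0.07) and Calr (0.94 ± 0.06) and the proteasome activator Psme2 (1.14 ± 0.10). These examples moved opposite to the class I heavy chains, a direction that the list as a whole did not share.

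All 4 tested class II chains, all 6 class II loading genes and Ciita fell as well. In wild-type cells the changes were -3.09 ± 0.35 for H2-Aa, -3.03 ± 0.36 for H2-Ab1, -3.30 ± 0.35 for H2-Eb1, -2.46 ± 0.32 for Cd74 and -2.75 ± 0.40 for Ciita. H2-DMa, a chain of the peptide exchange factor, fell by 1.70 ± 0.19, and H2-Oa, a chain of its inhibitor, by 3.05 ± 0.24. Among members averaging 1 CPM or more in the higher state, the largest fall belonged to H2-Ob, the partner chain of H2-Oa, in every genotype but rescue, where H2-M2 led with 4 counts over 3 libraries at 24 h and 65 over 3 naive ones. H2-M2 was at 0 in all 4 T1792tg/tg libraries at 24 h, at least 19.8-fold lower than its naive mean of 0.573 CPM when set against a floor of 3 counts over the group. H2-Ob read 1.47, 3.06, 1.95 and 1.36 CPM in wild-type cells at 24 h and 82.1, 119, 106.8 and 74.9 CPM in naive ones. The log2 fold change was -5.59 ± 0.25, 48.2-fold lower at 24 h (adjusted p = 6.75e-21). Markers of other presenting cells fell beside them. The summed level of 14 B cell markers was 51.3 to 125 CPM in wild-type libraries at 24 h and 268 to 540 CPM in naive ones, and 13 of the 14 were lower. The 8 dendritic cell markers summed to 1.12 to 2.04 CPM at 24 h and 13.98 to 21 CPM in naive wild-type libraries, with 7 of 8 lower. All 12 monocyte and macrophage markers were lower, from 127 to 189 CPM summed in naive wild-type libraries. Their part in the class II decrease was not tested, and in bulk RNA fewer cells of a type and less RNA per cell cannot be told apart.

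Between genotypes, the clearest pattern was a higher level of the H2-Q5 to H2-Q8 genes wherever the miR-17~92 transgene was present. H2-Q6 was the member with the largest rise in all 4 comparisons of transgene carriers; H2-Q5 and H2-Q8 were singled out after their values were seen. H2-Q6 read 485.4, 445.4 and 660.4 CPM in naive rescue cells and 109.8, 137.3, 126.9 and 113.0 CPM in naive CD28ko-labelled cells. It read 694.5, 701.1, 876.7 and 877.1 CPM in naive T1792tg/tg cells and 228.1, 236.5, 198.0 and 228.4 CPM in naive wild-type cells. Neither pair of groups overlapped, and the lowest transgene library lay above the highest library without the transgene. The log2 fold change was 2.12 ± 0.17 in rescue over CD28ko-labelled cells (4.36-fold, adjusted p = 4.87e-11) and 1.82 ± 0.16 in T1792tg/tg over wild-type cells (3.53-fold, adjusted p = 2.85e-10).

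**Figure D2:**
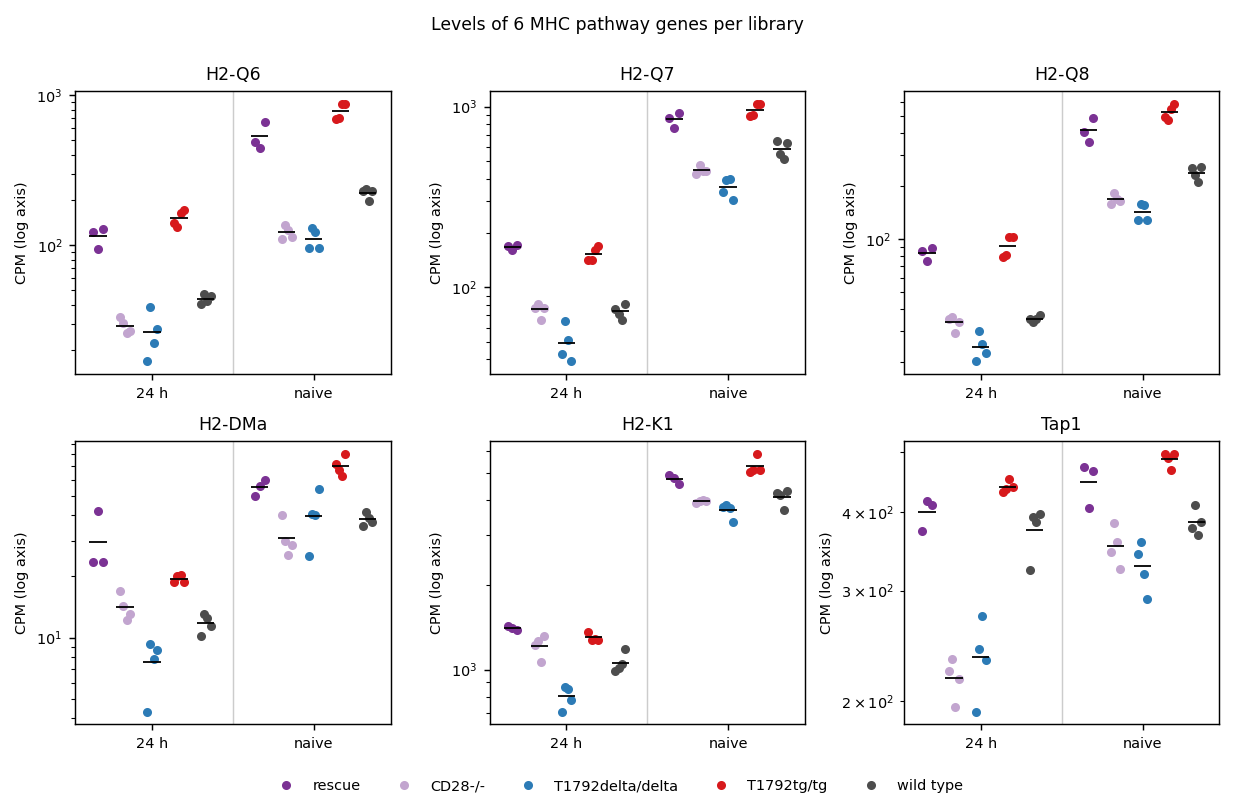
Level in CPM (log axis) of H2-Q6, H2-Q7, H2-Q8, H2-DMa, H2-K1 and Tap1 in every library, by genotype, at 24 h (left) and naive (right). Points are libraries (4 per group, 3 for rescue) and lines are group means. The transgene groups, rescue and T1792tg/tg, lie above the others for H2-Q6, H2-Q7 and H2-Q8 in both states, and Tap1 at 24 h is lowest in the CD28ko-labelled (CD28-/-) and T1792delta/delta groups.

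At 24 h the same difference held at a lower level. H2-Q6 read 121.5, 94.3 and 128.4 CPM in rescue and 33.3, 30.2, 26.0 and 26.6 CPM in CD28ko-labelled cells at 24 h. It read 140.1, 132.0, 164.7 and 172.3 CPM in T1792tg/tg and 40.7, 47.0, 42.8 and 45.8 CPM in wild-type cells. Again neither pair overlapped, with changes of 1.98 ± 0.17 (adjusted p = 2.63e-10) and 1.79 ± 0.16 (adjusted p = 1.49e-09). The test of whether the difference changed with stimulation gave -0.14 ± 0.24 for rescue against CD28ko-labelled and -0.03 ± 0.22 for T1792tg/tg against wild type, with 95% intervals of -0.63 to 0.35 and -0.48 to 0.42.

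H2-Q7 read 864.5, 760.5 and 926.8 CPM in naive rescue and 422.2, 478.1, 442.8 and 438.4 CPM in naive CD28ko-labelled cells. It read 881.7, 893.1, 1039 and 1032 CPM in naive T1792tg/tg and 646.2, 548.2, 510.7 and 631.9 CPM in naive wild-type cells. Its libraries did not overlap in either pair, and the changes were 0.93 ± 0.12 and 0.72 ± 0.11. H2-Q8 changed by 1.30 ± 0.11 and 1.14 ± 0.11 and H2-Q5 by 1.35 ± 0.11 and 0.85 ± 0.10 in the same pairs. The rise was not confined to these genes. H2-Q2 rose by 1.06 (adjusted p = 0.0258) and 1.17 (adjusted p = 0.00514) in these pairs. Its level was low, at 1.60 to 4.43 CPM in naive transgene libraries and 0.82 to 2.33 CPM in the others. H2-Q1 and H2-Q4 passed only in the rescue pair (0.36 and 0.39), and H2-Q10 only in the T1792tg/tg pair (0.46). Together H2-Q5 to H2-Q8 made up 17.2% ± 2.2 of all class I CPM in naive rescue (SD, n = 3), 9.28% ± 0.38 in CD28ko-labelled, 8.17% ± 0.78 in T1792delta/delta, 19.4% ± 1.5 in T1792tg/tg and 12.0% ± 0.6 in wild-type cells (SD, n = 4 each).

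In naive cells 15 members were higher and 0 lower in rescue than in CD28ko-labelled cells, where 7.84% of all genes were higher and 8.92% lower. In naive T1792tg/tg against wild-type cells 14 members were higher and 0 lower, beside 10.5% higher and 12.6% lower of all genes. At 24 h the counts were 14 higher and 1 lower for rescue (9.52% and 8.86% of all genes) and 12 higher and 0 lower for T1792tg/tg (6.1% and 6.45%). The median changes of the members were 0.26 and 0.41 in the naive pairs and 0.29 and 0.31 at 24 h (0.33 without H2-M2, which was at 0 in T1792tg/tg), with medians over all genes between -0.01 and 0.01. The pairs share no libraries with each other. In the naive state 7 of the 36 members lay higher in all 7 transgene libraries than in all 12 other libraries, against 1.54% of all tested genes. These were H2-K1, H2-Q5, H2-Q6, H2-Q7, H2-Q8, H2-T22 and H2-T-ps. At 24 h it was 12 of 36, against 1.17%, and these included H2-D1, B2m, Tap2, H2-T23 and H2-DMa. No member lay lower in all transgene libraries in either state (background 2.19% naive and 0.952% at 24 h). Summed markers of regulatory T cells were higher in the transgene group of each pair, without overlap. In naive cells their sums were 61.8 to 90.4 CPM in rescue, 50.4 to 54.7 CPM in CD28ko-labelled, 99.6 to 135.2 CPM in T1792tg/tg and 76.5 to 87.6 CPM in wild-type libraries, with 2 of 4 markers higher in each pair. At 24 h the sums were 900 to 959 CPM in rescue, 547 to 571 CPM in CD28ko-labelled, 924 to 964 CPM in T1792tg/tg and 653 to 686 CPM in wild-type libraries. There 3 markers were higher and 1 lower in the rescue pair, and 2 higher and 0 lower in the T1792tg/tg pair. From naive to 24 h, 1 of the 4 markers rose and 3 fell in wild-type and in T1792tg/tg cells. In these 2 genotypes 1 marker thus carried most of the 24 h sum, which is not a level of the marker set as a whole. Of 8 CD8 T and NK cell markers, 2 were higher in the rescue pair and 3 in the T1792tg/tg pair, in the naive state and at 24 h alike. The summed RNA stress and dissociation genes overlapped in both naive pairs and in neither pair at 24 h, at 160 to 234 CPM in rescue, 138 to 153 CPM in CD28ko-labelled, 260 to 333 CPM in T1792tg/tg and 195 to 236 CPM in wild-type libraries. The part of these markers in the result was not tested.

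The classical genes moved much less. H2-K1 read 4941, 4816 and 4559 CPM in naive rescue and 3923, 3969, 4007 and 3986 CPM in naive CD28ko-labelled cells, a change of 0.27 ± 0.08 (adjusted p = 0.0139; 0.0633 without rescue library 1, 0.0647 without both libraries that stood apart and 0.0979 with only these groups in the fit). In naive T1792tg/tg over wild-type cells it changed by 0.36 ± 0.07 (1.29-fold, adjusted p = 0.000291). H2-D1 changed by 0.24 ± 0.07 in the rescue pair (adjusted p = 0.011, and 0.109 with only these groups in the fit) and by 0.13 ± 0.06 in the T1792tg/tg pair, where it did not pass the test (adjusted p = 0.126). Tap1 was higher in both naive pairs, by 0.34 ± 0.09 and 0.34 ± 0.08. B2m was higher in T1792tg/tg by 0.34 ± 0.10 (adjusted p = 0.0112; 0.0570 without wild-type library 3) and did not pass in rescue (0.17 ± 0.11). H2-M3, Tap2 and Tapbp passed in neither naive pair. With all class I genes summed the differences were 0.40 ± 0.07 and 0.41 ± 0.06 in naive cells, and 0.37 ± 0.07 and 0.40 ± 0.06 at 24 h, all past the threshold.

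In naive cells without the transgene, H2-Q5 to H2-Q8 were lower than in wild type in T1792delta/delta and in CD28ko-labelled cells alike. In naive T1792delta/delta cells 5 members were lower and 0 higher than in wild type, where 2.42% of all genes were lower and 2.76% higher. H2-Q6 read 95.9, 129.2, 122.5 and 95.0 CPM in naive T1792delta/delta cells, all below the wild-type range of 198.0 to 236.5 CPM, a change of -1.01 ± 0.16 (adjusted p = 8.06e-05). H2-Q7 fell by 0.70 ± 0.11, and H2-Q5, H2-Q8 and H2-T22 were the other lower members. H2-K1 (-0.16 ± 0.07), B2m (-0.04 ± 0.10) and Tap1 (-0.23 ± 0.08) did not pass, nor did H2-Q1 (-0.15), H2-Q2 (0.06), H2-Q4 (-0.20) and H2-Q10 (-0.20). H2-D1 (-0.17, adjusted p = 0.0899) passed only with DESeq2 (adjusted p = 0.0470) or without wild-type library 3 (0.0355). With all class I genes summed the difference passed, at -0.23 ± 0.06 (adjusted p = 0.0262). In these naive libraries 8 of 12 monocyte and macrophage markers were higher than in wild type, with sums of 249.1 to 381.7 CPM against 127 to 189 CPM, and their part in the result was not tested.

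In naive CD28ko-labelled cells 2 members were higher and 7 lower than in wild type, beside 7.42% and 7.34% of all genes. H2-Q6 fell by 0.87 ± 0.16 (adjusted p = 0.000271), to the same range as in T1792delta/delta cells, and its libraries did not overlap those of wild type. H2-Q7 fell by 0.39 ± 0.11 (adjusted p = 0.0155; 0.0549 without wild-type library 1) and Tap2 by 0.29 ± 0.08 (adjusted p = 0.00995, and 0.0504 with only these groups in the fit). The 2 higher members were B2m, by 0.31 ± 0.10, and H2-T24, by 0.46 ± 0.13. The B2m call was lost without CD28ko-labelled library 4 (adjusted p = 0.144) or wild-type library 2 (0.103) or 3 (0.120) and with only these groups in the fit (0.137), and that of H2-T24 without CD28ko-labelled library 2 (0.0550). In the naive CD28ko-labelled libraries 6 of 7 RNA stress genes were lower than in wild type (median -1.08), as were 3 of 4 regulatory T cell (1 was higher), 3 of 12 monocyte and macrophage and 2 of 8 dendritic cell markers. The regulatory T cell markers summed to 50.4 to 54.7 CPM in CD28ko-labelled and 76.5 to 87.6 CPM in wild-type libraries, and the part of these markers was not tested. Both of these naive comparisons, and that of T1792tg/tg, used the same 4 wild-type libraries.

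**Figure D3:**
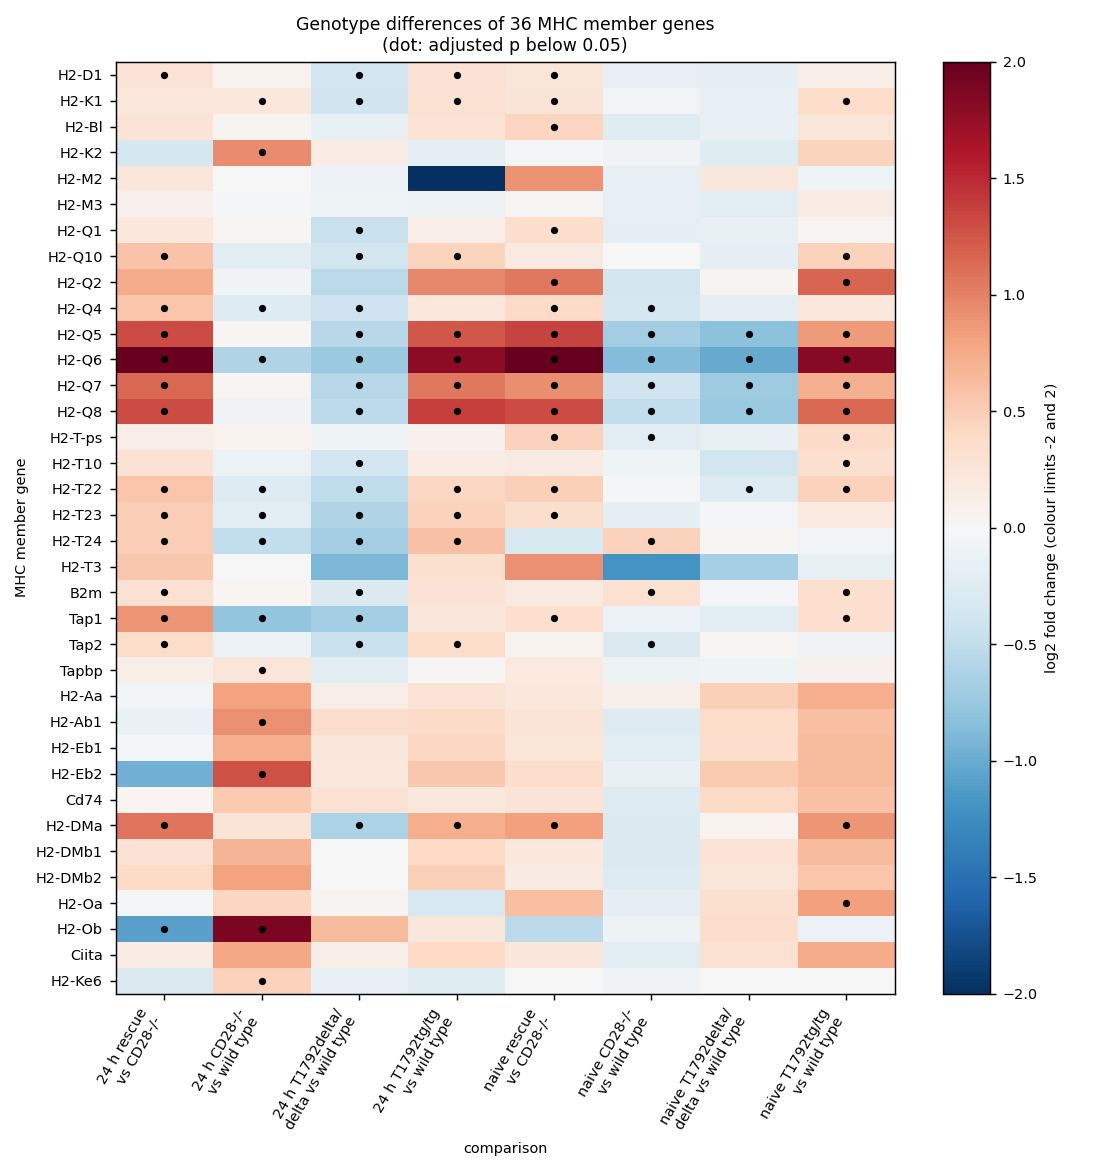
Log2 fold change (colour, limits -2 and 2) of the 36 tested members in 8 genotype comparisons, with a dot where the adjusted p was below 0.05. The 4 comparisons of transgene carriers are red for H2-Q5 to H2-Q8, the naive T1792delta/delta and CD28-/- (CD28ko-labelled) columns are blue there, and the 24 h T1792delta/delta column is blue over most class I genes. H2-M2 had 0 counts in all T1792tg/tg libraries at 24 h and 4 over the 4 wild-type libraries, so its blue cell gives no fold.

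After 24 h of stimulation, T1792delta/delta cells had less class I message across the group. Of the 36 members 17 were lower and 0 higher than in wild type, where 8.47% of all genes were lower and 7.77% higher, and the median was -0.33 beside 0.00 over all genes. H2-K1 read 709.2, 868.5, 852.0 and 780.0 CPM in T1792delta/delta and 987.7, 1011, 1045 and 1186 CPM in wild-type cells at 24 h. The groups did not overlap, and the change was -0.40 ± 0.07 (1.32-fold lower, adjusted p = 0.000151). H2-D1 changed by -0.38 ± 0.06, H2-Q7 by -0.57 ± 0.11 and H2-T23 by -0.61 ± 0.08. Among called members averaging 1 CPM or more, the largest fall was that of H2-Q6, by 0.73 ± 0.16. All class I genes summed fell by 0.41 ± 0.06 (adjusted p = 1.46e-05). The test of whether this summed difference changed with stimulation gave -0.19 ± 0.09 and did not pass (adjusted p = 0.201). Tap1 read 192.3, 242.5, 273.2 and 232.1 CPM in T1792delta/delta cells, all below the wild-type libraries at 323.6 to 398.3 CPM, a change of -0.68 ± 0.08 (1.6-fold lower, adjusted p = 3.07e-07). Tap2 fell by 0.45 ± 0.08.

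B2m fell by 0.28 ± 0.10 (adjusted p = 0.0437), a call lost on leaving out any single library of the 8 except T1792delta/delta library 2, with adjusted p between 0.0521 and 0.186. H2-DMa fell by 0.64 ± 0.20 (adjusted p = 0.0261), a call lost without T1792delta/delta library 1 (0.144) or wild-type library 2 (0.0733) or 3 (0.0608), and at 0.0534 with only these groups in the fit. Without T1792delta/delta library 1, the lowest for most class I genes, 12 members were lower in place of 17. H2-M3 (-0.09 ± 0.11) and Tapbp (-0.21 ± 0.09) did not pass, and none of H2-Aa, H2-Ab1, H2-Eb1, Cd74 and Ciita did.

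Genes of the interferon route and the immunoproteasome, which cuts peptides for class I, were lower beside them. Of the 27 pathway genes 11 were lower and 2 higher in T1792delta/delta than in wild-type cells at 24 h, beside 8.47% and 7.77% of all genes. Ifng, the cytokine gene, averaged 2.48 ± 1.22 CPM in T1792delta/delta and 12.1 ± 5.95 CPM in wild-type cells (SD, n = 4 each), a change of -2.28 ± 0.39. Irf1 fell by 0.80 ± 0.12 and Nlrc5 by 0.55 ± 0.12. The immunoproteasome subunits Psmb8, Psmb9 and Psmb10 fell by 0.48 ± 0.09, 0.60 ± 0.10 and 0.39 ± 0.08. At 24 h regulatory T cell marker sums were 395 to 443 CPM in T1792delta/delta and 653 to 686 CPM in wild-type libraries, with 2 of 4 lower. In both genotypes 1 of the 4 markers rose and 3 fell from naive to 24 h, so 1 marker carried most of these sums. RNA stress sums were 139.5 to 188.0 CPM in T1792delta/delta and 195 to 236 CPM in wild type. The part of these genes in the class I difference was not tested.

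In CD28ko-labelled cells at 24 h 7 of 36 members were higher and 6 lower than in wild type, beside 23.7% higher and 27.8% lower of all genes. The members were thus called less often than genes at large. Of the 36, 8 did not overlap between the groups, against 54.1% of all genes. Tap1 was the member with the largest fall. It read 223.3, 233.4, 195.7 and 217.2 CPM in CD28ko-labelled cells, all below wild type, a change of -0.79 ± 0.08 (1.73-fold lower, adjusted p = 6.42e-10). Psmb9 (-0.90 ± 0.10), Irf1 (-0.77 ± 0.12) and Ifng (-2.78 ± 0.41) were lower with it. Of the 27 pathway genes 13 were lower and 6 higher, beside 27.8% and 23.7% of all genes. Beside them 6 of 8 CD8 T and NK cell markers were lower and 1 higher (median -1.16), as were all 4 regulatory T cell markers. RNA stress sums were 138 to 153 CPM in CD28ko-labelled and 195 to 236 CPM in wild-type libraries, and the part of these markers was not tested. H2-K1 was higher by 0.20 ± 0.07, Tapbp by 0.24 ± 0.09 and H2-Ab1 by 0.91 ± 0.35, while H2-T23 was lower by 0.22 ± 0.08. Each of these 4 calls was lost without 1 of several libraries. They were CD28ko-labelled 4 or wild-type 1 or 2 for H2-K1 (adjusted p 0.0518 to 0.0744), and CD28ko-labelled 2 or wild-type 1 or 2 for Tapbp (0.0749 to 0.123). They were CD28ko-labelled 1 or 4 or wild-type 1 or 4 for H2-Ab1 (0.0539 to 0.117), and CD28ko-labelled 3 or wild-type 3 or 4 for H2-T23 (0.0526 to 0.111). The class I sum did not pass the test (0.06 ± 0.06), and the H2-Q7 difference was 0.04 ± 0.11. The changes of the 4 tested class II chains ran from 0.73 to 1.27, with 2 called higher. H2-Aa missed in the main fit and passed with DESeq2 (0.80, adjusted p = 0.0485), a mean of at least 5 CPM (0.0430) and only these groups in the fit (0.0196).

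The rise of H2-Ob in CD28ko-labelled cells was the largest among the members. It read 8.91, 6.21, 6.15 and 8 CPM in CD28ko-labelled and 1.47, 3.06, 1.95 and 1.36 CPM in wild-type cells at 24 h. The groups did not overlap, and the change was 1.88 ± 0.27 (3.69-fold, adjusted p = 4.1e-07). In rescue cells H2-Ob read 2.89, 2.70 and 4.72 CPM at 24 h, below all CD28ko-labelled libraries, a change of -1.08 ± 0.27 (adjusted p = 0.00362) and the only member lower there. B cell markers summed to 120 to 168 CPM in CD28ko-labelled and 51.3 to 125 CPM in wild-type libraries at 24 h, with 5 of 14 higher. Their part in the H2-Ob, H2-Ab1 and other class II differences was not tested. Between rescue and CD28ko-labelled cells 0 of 14 B cell markers passed in either direction, with sums of 107 to 155 CPM in rescue.

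Of the 4 partner and loading genes, all but Tapbp (0.12 ± 0.10) were higher in rescue than in CD28ko-labelled cells at 24 h. Tap1 read 373.8, 416.4 and 411.2 CPM in rescue cells, all above the CD28ko-labelled range of 195.7 to 233.4 CPM, a change of 0.88 ± 0.09 (1.84-fold, adjusted p = 4.3e-09). Tap2 rose by 0.37 ± 0.08 and H2-T23 by 0.49 ± 0.09. B2m rose by 0.31 ± 0.11 (adjusted p = 0.0347), a call lost without CD28ko-labelled library 1, 2 or 3 or rescue library 2 or 3 (adjusted p 0.0555 to 0.167). Of the 27 pathway genes 10 were higher and 1 lower, beside 9.52% and 8.86% of all genes. Ifng averaged 11.5 ± 4.7 CPM in rescue (SD, n = 3) and 1.76 ± 0.21 CPM in CD28ko-labelled cells (SD, n = 4), and Nlrc5 (0.92 ± 0.13) and Irf1 (0.86 ± 0.13) were higher with it. In T1792tg/tg over wild-type cells at 24 h Ifng was also higher, by 2.43 ± 0.35, and Nlrc5 by 0.36 ± 0.12. Irf1 (0.08 ± 0.12) and Tap1 (0.23 ± 0.08, adjusted p = 0.06) did not pass there, while Tap2 (0.36 ± 0.08), H2-K1 (0.30 ± 0.07), H2-D1 (0.29 ± 0.06) and H2-T23 (0.46 ± 0.08) were higher. Tap1 did pass with RLE scaling (adjusted p = 0.045), a mean of at least 5 CPM (0.0425), DESeq2 (0.027) and only these groups in the fit (0.0251). B2m likewise missed in the main fit and passed in each of these settings (adjusted p 0.00327 to 0.0496). Tapbpl, the tapasin-related editor, was higher in all 4 comparisons of transgene carriers, by 0.49 to 0.66, and 0.53 in the rescue pair at 24 h.

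A direct test of how the response to stimulation differed between genotypes called 12 members higher and 2 lower in CD28ko-labelled against wild-type cells (20.8% and 22.4% of all genes). With libraries paired by number within genotype, a pairing that the wild-type libraries bore out and the CD28ko-labelled ones did not, 18 were higher and 2 lower. There H2-K1 (adjusted p = 0.0627) and H2-D1 (0.0600) were lost, and the members gained included H2-Aa (0.000289), H2-Eb1 (9.55e-05), Cd74 (0.000164), Ciita (0.00366), H2-DMa (0.00603) and H2-Oa (0.00794). Without pairing, H2-Ob (1.98 ± 0.33) led the higher members and H2-T24 (-0.96 ± 0.19) the lower, with Tap1 at -0.66 ± 0.11. Only 7 members were called without CD28ko-labelled library 2 at 24 h and 8 without wild-type library 1 at 24 h. Against wild type, 4 members responded differently in T1792delta/delta cells, all lower (2.95% of all genes lower, 3.15% higher). They were Tap1 (-0.44 ± 0.11), Tap2 (-0.48 ± 0.11), H2-T23 (-0.58 ± 0.12) and H2-T24 (-0.73 ± 0.19). H2-DMa (-0.70 ± 0.27, adjusted p = 0.113) joined them when libraries were paired by number within genotype (adjusted p = 0.014). The Tap1 call was lost without T1792delta/delta library 1 at 24 h (adjusted p = 0.0579) and that of H2-T24 without wild-type library 4 at 24 h (0.0571).

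In T1792tg/tg cells 2 members responded higher and 2 lower than in wild type (8.59% and 7.41% of all genes), among them Tap2 (0.44 ± 0.11), H2-T24 (0.63 ± 0.19) and H2-Oa (-1.14 ± 0.34). The count was 2 without T1792tg/tg library 4 at 24 h, where H2-Oa was lost (adjusted p = 0.0634), as it was without wild-type library 2 at 24 h (0.0662). H2-T24 was lost without T1792tg/tg library 3 at 24 h (0.0597). In rescue against CD28ko-labelled cells the response was higher for Tap1 (0.54 ± 0.12) and H2-T24 (0.80 ± 0.21) and lower for none (6.96% and 5.84% of all genes). At an unadjusted p below 0.05, 6 members passed in that comparison, and DESeq2 called 4.

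Class II chains did not differ between naive genotypes by the test, but varied widely within each. H2-Aa ranged between 110.1 and 371.8 CPM over the 4 naive T1792delta/delta libraries and between 124.7 and 210.1 CPM over the 4 naive wild-type ones. In T1792tg/tg it ran between 229.1 and 349.9 CPM, above all wild-type libraries, and the change of 0.73 ± 0.32 did not pass (adjusted p = 0.0983). With only these 8 libraries in the fit the adjusted p was 0.00864, and H2-Ab1, H2-Eb1, Cd74 and Ciita passed as well. The summed CPM of H2-Aa, H2-Ab1, H2-Eb1, H2-Eb2 and Cd74 moved with the B cell markers over libraries. It was 1.24 to 1.70 times the sum of 14 B cell markers in the 19 libraries at 24 h and 1.71 to 2.38 times in the 19 naive ones, while the B cell marker sum itself ran over 44.7 to 168 CPM and 198 to 799 CPM. The part of B cells in these levels was not tested.

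**Figure D4:**
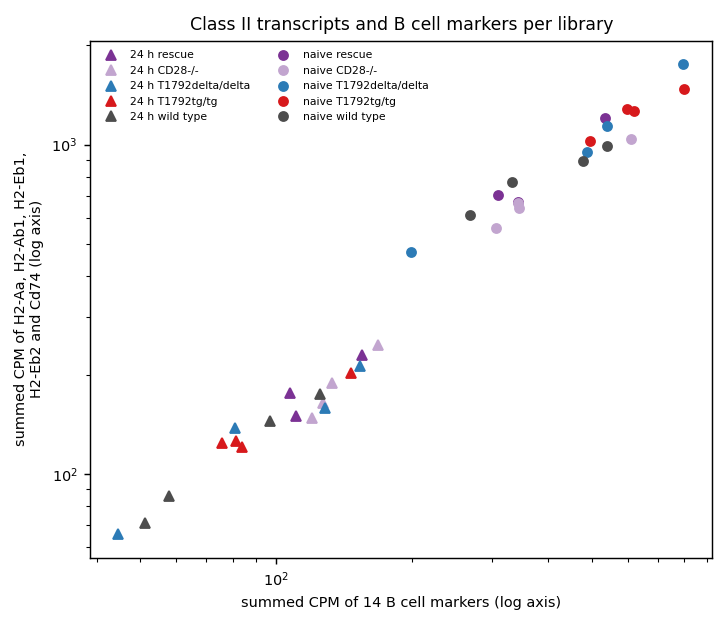
Summed CPM of H2-Aa, H2-Ab1, H2-Eb1, H2-Eb2 and Cd74 against the summed CPM of 14 B cell markers in each of the 38 libraries (log axes), with triangles for 24 h, circles for naive and colour for genotype (CD28-/- is the CD28ko-labelled group). The points follow a narrow band, with class II at 1.24 to 1.70 times the B cell markers at 24 h and 1.71 to 2.38 times in naive libraries.

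Among the peptide exchange genes, H2-DMa was higher with the transgene. H2-DMa read 49.9, 55.6 and 59.6 CPM in naive rescue and 40.3, 30.1, 25.6 and 28.4 CPM in naive CD28ko-labelled cells. It read 71.9, 66.8, 62.2 and 80.5 CPM in naive T1792tg/tg and 35.4, 41.6, 38.7 and 37.0 CPM in naive wild-type cells. Neither pair overlapped, and H2-DMa was higher by 0.82 ± 0.19 (adjusted p = 0.0029) and 0.88 ± 0.18 (adjusted p = 0.000496), where 0 and 1 of 14 B cell markers were higher, with median changes of -0.04 and 0.58. At 24 h the differences were 1.07 ± 0.20 and 0.72 ± 0.19. Dendritic cell marker sums lay higher without overlap in naive T1792tg/tg than in wild-type libraries, at 22.1 to 27.2 CPM against 13.98 to 21 CPM. The same held at 24 h, at 2.93 to 4.48 CPM in T1792tg/tg against 1.12 to 2.04 CPM in wild type and at 2.67 to 2.97 CPM in rescue against 1.89 to 2.18 CPM in CD28ko-labelled libraries. Of the 8 dendritic cell markers, 1 was higher in T1792tg/tg at 24 h and 0 in the other 3 pairs. The part of these cells in the H2-DMa result was not tested. H2-Oa was higher in naive T1792tg/tg cells by 0.82 ± 0.20, at 25.6 to 26.8 CPM against 11.2 to 17.98 CPM in wild type. In naive rescue over CD28ko-labelled cells H2-Oa missed the threshold (0.60 ± 0.22, adjusted p = 0.0526) and passed without naive CD28ko-labelled library 1 (0.85, adjusted p = 0.00367). The H2-DMa CPM was 0.57 to 1.34 times that of H2-Aa in rescue and 0.35 to 0.49 times in CD28ko-labelled libraries at 24 h. In the other pair the ratio overlapped, at 0.58 to 0.97 in T1792tg/tg and 0.41 to 1.08 in wild type at 24 h, and at 0.18 to 0.29 and 0.20 to 0.30 in the naive libraries of these groups.

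Along chromosome 17 the members lay among 112 other tested genes of the same span (GRCm38.p6), 32 of the 36 tested members being placed there. In naive T1792tg/tg over wild-type cells 12 of the 32 members were higher and 0 lower, and 18 of the 112 others were higher and 11 lower. In naive rescue over CD28ko-labelled cells it was 14 higher and 0 lower of the members and 12 higher and 8 lower of the others. The medians were 0.37 and 0.05 for the members and the others in the T1792tg/tg pair, and 0.30 and 0.10 in the rescue pair. At 24 h in T1792delta/delta cells 15 of 32 members and 19 of 112 others were lower. These counts have no test of their own.

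**Figure D5:**
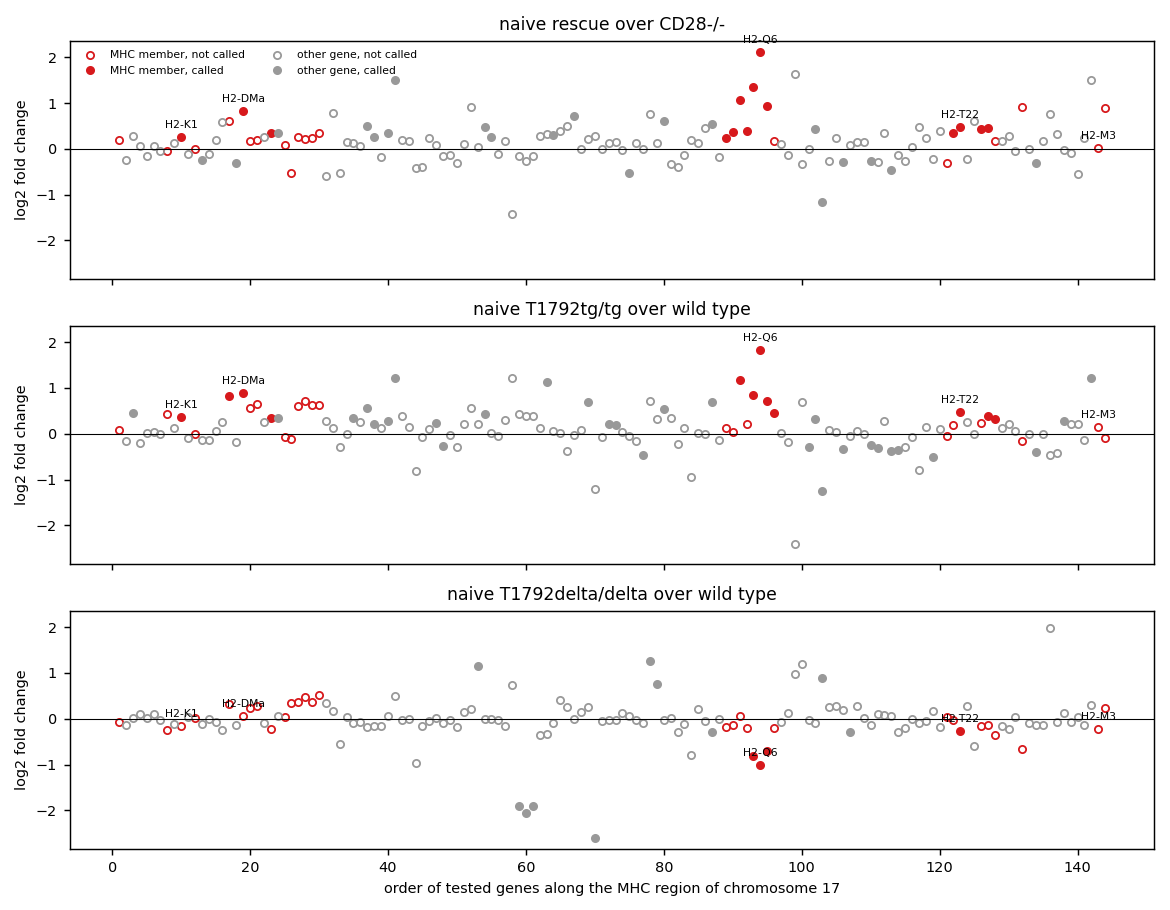
Log2 fold change of every tested gene along the MHC region of chromosome 17, in order of position, for naive rescue over CD28ko-labelled (CD28-/-), naive T1792tg/tg over wild-type and naive T1792delta/delta over wild-type cells. MHC members are red and other genes grey, filled where the adjusted p was below 0.05. H2-Q6 stands highest among the members in the first 2 panels and lowest in the third, while neighbouring genes scatter on both sides of 0.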

How the data were processed

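Polyadenylated RNA of 38 libraries in 10 groups (5 genotypes, naive or 24 h) was sequenced as 76-base single-end reads from stranded kits, per the labels' protocols. The deposited values were raw read counts per gene. Per the submitters' processing notes the build was mm10, and the tools included STAR 2.5.2a, FastQC 0.11.5 and edgeR 3.24.3 under R 3.5. The counter and its annotation were not given in the sources used here, nor was its handling of reads shared between copies. Of 24028 identifiers, 23968 matched a RefSeq symbol (GRCm38.p6); the other 60 held 0.0749% of the counts. Library totals are given in the results, and their size limits only the rarest members.

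In R 4.3.3, edgeR 4.0.16 (limma 3.58.1) tested 13650 genes that passed filterByExpr, with TMM scaling and quasi-likelihood fits over all 10 groups. Adjusted p-values are Benjamini-Hochberg over all tested genes in each of 17 comparisons, and 0.05 was the threshold; all adjusted p-values in the text are from this test unless another tool is named. CPM used TMM-scaled library sizes. The scripts were first checked on counts with known answers. Alternatives were RLE scaling, no filter, a mean of at least 5 CPM, DESeq2 1.42.0, a fit of the compared groups alone, a replicate block, all class I genes summed, each library left out, and, chosen after seeing the data, both libraries that stood apart left out.

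The members and gene lists were chosen with earlier results of these data known. The genes named were 16 followed members and, per comparison, the called member with the largest change each way among those whose higher group averaged 1 CPM or more. Other members named, and the pathway genes given as examples, were chosen after their values were seen. Libraries counted as replicates came from different mice, per the labels' protocols. Same-number naive and 24 h libraries deviated together, with every correlation above 0.1, in wild type (0.122 to 0.342) and T1792delta/delta (0.210 to 0.313), and not in CD28ko-labelled (lowest 0.0254), T1792tg/tg (0.0338) or rescue libraries (0.0296). Per-gene intervals cover the spread between libraries only.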

Additional observations from a re-analysis of the deposited data

Results flagged for a closer look

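In 14 of 159 sets of group levels, 1 library lay far from the others of its group; chance alone flags about 1 in 20 such sets. At 24 h, T1792tg/tg library 3 was the highest of its group for H2-Aa (34.7 CPM), H2-Ab1 (26.0 CPM) and Cd74 (114.8 CPM), library 1 the lowest for H2-T23 (200.0 CPM) and library 4 the lowest for H2-Oa (0.979 CPM). T1792delta/delta library 1 at 24 h was the lowest for Tap2 (94.0 CPM) and H2-T24 (8.35 CPM). CD28ko-labelled library 3 at 24 h was the lowest for H2-T23 (117.1 CPM), and library 1 the highest for Ciita (6.44 CPM). Wild-type library 1 at 24 h was the lowest for Tap1 (323.6 CPM). Among naive libraries, T1792tg/tg library 3 was the highest for H2-K1 (5864 CPM) and H2-Ob (114.1 CPM), and CD28ko-labelled library 1, which stood apart, for H2-Ab1 (141.7 CPM) and H2-Oa (19.1 CPM).

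In 17 cases the response of a named member to stimulation differed between genotypes by the edgeR test of the difference. H2-Ob and H2-T24 are among them only because the called members with the largest change were named. Over all genes, 20.8% responded higher and 22.4% lower in CD28ko-labelled cells, and 3.15% and 2.95% in T1792delta/delta cells. Against wild type, CD28ko-labelled cells differed in H2-K1 (0.25, log2), H2-D1 (0.23), Tap1 (-0.66), Tapbp (0.34), H2-Q7 (0.43), H2-Ab1 (1.17), H2-Ob (1.98) and H2-T24 (-0.96). Of these, 5 were lost without 1 of several libraries. H2-K1 was lost without any of 12 (CD28ko-labelled 1, 2 or 4 in either state, naive wild-type 1, 2 or 4, or 24 h wild-type 1, 2 or 3; adjusted p 0.0516 to 0.0994). H2-D1 was lost without naive CD28ko-labelled 3, 24 h CD28ko-labelled 2 or 4, naive wild-type 1 or 4, or 24 h wild-type 1 or 2 (0.0518 to 0.0732). Tapbp was lost without naive CD28ko-labelled 4, 24 h CD28ko-labelled 2, naive wild-type 1, or 24 h wild-type 1 or 2 (0.0579 to 0.0792). H2-Q7 was lost without 24 h CD28ko-labelled 2, naive wild-type 1 or 4, or 24 h wild-type 3 (0.0534 to 0.0609). H2-Ab1 was lost without naive CD28ko-labelled 2, 3 or 4, 24 h CD28ko-labelled 1 or 4, naive wild-type 2 or 3, or 24 h wild-type 1 or 4 (0.0654 to 0.111).

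T1792delta/delta cells differed from wild type in Tap1 (-0.44), Tap2 (-0.48), H2-T23 (-0.58) and H2-T24 (-0.73), and T1792tg/tg cells in Tap2 (0.44), H2-Oa (-1.14) and H2-T24 (0.63). Rescue cells differed from CD28ko-labelled cells in Tap1 (0.54) and H2-T24 (0.80). Over all genes, 8.59% responded higher and 7.41% lower in T1792tg/tg cells, and 6.96% and 5.84% in rescue cells. The called members in T1792tg/tg and rescue cells did not exceed those shares.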

How the results depend on the processing

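No named member that was called in the main or the alternative run reversed direction between them. Changes of sign where neither run called the member were not counted. With all class I genes summed, which leaves fewer features by construction, the called features were 16 in the rescue, 17 in the CD28ko-labelled, 17 in the T1792delta/delta, 16 in the T1792tg/tg and 16 in the wild-type response. In that setting 3 were called in naive rescue over CD28ko-labelled, 2 in naive CD28ko-labelled, 1 in naive T1792delta/delta and 5 in naive T1792tg/tg over wild-type cells. At 24 h the same comparisons gave 6, 7, 5 and 3, and the differences between responses 1, 7, 2 and 2. For rescue over CD28ko-labelled responses, DESeq2 called 4 members and the replicate block within genotype 4, in place of 2; the pairing check did not hold in those genotypes. Leaving out 1 library gave 7 to 17 members for the CD28ko-labelled difference in response and 2 to 4 for that of T1792tg/tg. Under the block the CD28ko-labelled difference had 20 members and that of T1792delta/delta 5. With only the compared groups fitted, 19 of 33 members differed in CD28ko-labelled cells at 24 h (13 higher, 6 lower, beside 66.2% of all genes) and 10 of 35 in naive rescue over CD28ko-labelled cells (9 higher, 1 lower, beside 6.5%). Without both libraries that stood apart the naive rescue count was 13. RLE scaling moved the median of all genes in the wild-type response to -0.12. Depth limits H2-M2 and the 11 untested members.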
